A study of Mus musculus with 40 samples.

Results

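The 8 genes described here, Mthfd1, Shmt1, Tyms, Aldh1l1, Ftcd, Mthfs, Atic and Gart, encode enzymes of the cytosol that pass one-carbon units between forms of folate and use them to build thymidylate and purines. They were taken by symbol from a fixed list, and all 8 were found among the 20593 genes of the expression table. Messenger RNA was measured in livers of male and female C57BL/6 mouse fetuses on gestational day 18.5. From 13 weeks before mating until the end of pregnancy the mothers were fed 1 of 4 diets. The control diet (CD) had 10% of its calories from fat and 2 mg/kg folic acid, and CDF was the same diet with 10 mg/kg folic acid. The western diet (WD) had 45% of its calories from fat and 2 mg/kg folic acid, and WDF was that diet with 10 mg/kg folic acid. The submitters describe the high-fat diet as a model of gestational diabetes in the dam. Each of the 8 groups of diet and sex had 5 libraries, 1 library per fetus, of which 38 were used. CD females and CDF females kept 4 each, because 2 libraries held lung rather than liver message, 1 of them with much heart message as well. Values are normalized read counts, that is, reads per gene after the authors' correction for depth. Which fetuses shared a mother is not given in the labels, so littermates may be among them and p-values rest on the variation from fetus to fetus alone.

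Folate carries single carbons in its reduced form, tetrahydrofolate, and the enzymes described here load, convert and unload that carrier. Shmt1 moves a carbon from serine to tetrahydrofolate, Mthfd1 converts the loaded forms into each other, and Mthfs brings the storage form, formyltetrahydrofolate, back into use. Ftcd feeds in carbon from histidine breakdown, and Aldh1l1 releases carbon as carbon dioxide and frees the carrier. Tyms spends a carbon to make thymidylate for DNA, and Gart and Atic spend carbons to build the purine ring. Liver is a main site of folate storage, and the fetal liver late in gestation holds both hepatocytes and dividing blood precursors.

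In the mouse build mm10, Mthfd1 lies on chromosome 12 from 76255298 to 76319803, Aldh1l1 on chromosome 6 from 90486427 to 90600203, Ftcd on chromosome 10 from 76575648 to 76590338, Mthfs on chromosome 9 from 89210676 to 89377713 and Atic on chromosome 1 from 71557150 to 71579631, all on the plus strand. Shmt1 lies on chromosome 11 from 60788104 to 60811718, Tyms on chromosome 5 from 30058202 to 30073617 and Gart on chromosome 16 from 91621186 to 91646952, all on the minus strand. Reads were counted over whole genes, so no isoform is told apart. Shmt1 overlaps the coding gene Smcr8 on the opposite strand, Mthfs overlaps the coding gene Gm29094 on its own strand, and Mthfd1, Aldh1l1 and Gart each overlap an antisense transcript. The library kit keeps strand, but whether the counting used it is not given in the sources used here. Reads of these 5 genes may therefore be shared with their neighbours, and those of Tyms with its processed pseudogene Tyms-ps on chromosome 10.

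The promoter sequences of 4 members are shown: Ftcd and Shmt1, the pair with the highest correlation between livers, and Tyms and Gart, a thymidylate and a purine enzyme whose correlation passed over all livers but not in males alone or without the first component, as described further on. Other pairs of members were closer than Tyms and Gart. Each is the 250 bases before the start of transcription, 5′ to 3′ on the strand of the gene, from RefSeq on build GRCm38.p6. They are chr10:76575398-76575647 (plus strand) for Ftcd, chr11:60811266-60811515 (minus) for Shmt1, chr5:30073626-30073875 (minus) for Tyms and chr16:91646973-91647222 (minus) for Gart. Capitals mark matches to the motifs named in the next paragraph.
Ftcd: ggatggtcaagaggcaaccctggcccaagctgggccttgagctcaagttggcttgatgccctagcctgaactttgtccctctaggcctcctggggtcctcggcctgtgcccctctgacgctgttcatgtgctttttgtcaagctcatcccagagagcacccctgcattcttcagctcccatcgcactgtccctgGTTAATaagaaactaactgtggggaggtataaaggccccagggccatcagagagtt
Shmt1: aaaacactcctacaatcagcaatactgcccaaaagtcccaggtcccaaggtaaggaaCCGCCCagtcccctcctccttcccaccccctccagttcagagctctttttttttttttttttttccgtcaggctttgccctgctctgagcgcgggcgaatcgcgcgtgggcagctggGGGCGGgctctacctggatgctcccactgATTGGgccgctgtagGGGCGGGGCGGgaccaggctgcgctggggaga
Tyms: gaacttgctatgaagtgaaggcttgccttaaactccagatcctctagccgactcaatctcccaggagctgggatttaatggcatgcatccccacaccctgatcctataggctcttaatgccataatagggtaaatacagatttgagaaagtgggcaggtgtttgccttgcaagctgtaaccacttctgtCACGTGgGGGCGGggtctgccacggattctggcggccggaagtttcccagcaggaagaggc
Gart: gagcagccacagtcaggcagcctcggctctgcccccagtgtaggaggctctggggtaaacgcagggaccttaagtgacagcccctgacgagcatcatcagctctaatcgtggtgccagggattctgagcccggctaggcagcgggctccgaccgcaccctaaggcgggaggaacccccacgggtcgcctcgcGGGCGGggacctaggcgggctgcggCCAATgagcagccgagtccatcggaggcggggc

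The motifs were searched on both strands in the same window of all 8 members, each of which had an entry, and of 27025 genes in all. RefSeq starts can differ from the gene ends given above. The window of Aldh1l1, chr6:90550543-90550792, lies well inside that gene, and Mthfs had 2 overlapping windows, chr9:89210940-89211189 and chr9:89211134-89211383. Adjoining GC boxes can overlap. The GC box GGGCGG was found in 7 of the 8 members and in 32.9% of all promoters, and Ftcd was the member without it. Shmt1 had 4 GC boxes, the nearest 27 bases before the start. CCAAT, the letters bound by NF-Y, was found in 5 members (34.5% of all promoters), among them Shmt1 at 47 and Gart at 33 bases before the start. The E-box CACGTG was found in Tyms, 61 bases before the start, and in Atic (6.05% of all). GTTAAT, a part of the HNF1 motif, was found in Ftcd alone, 56 bases before the start (6.52% of all). The E2F letters TTCGCGC were found in Atic (1.29% of all), TTGGCGC in none (2.05% of all), and the HNF4A letters CAAAGTC in none (3.8% of all). These are matches of letters in a window and say nothing of binding. The 2 promoters of the pair Ftcd and Shmt1 shared no motif of this set, while those of Tyms and Gart shared the GC box. Ftcd shared no motif of the set with any other member, and the GC box was in all 7 others. Neither result is therefore particular to its pair.

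The summed values of the 38 libraries ran from 15001967 to 27817171 around a median of 17006412. The albumin gene Alb, a hepatocyte marker, ranged from 641907 to 1496610 in them. In the 2 libraries left out, replicate 4 of the CD females and replicate 5 of the CDF females, it was at 7708 and 5278. There Sftpc, a lung surfactant gene, stood at 101239 and 67014, and Myh6, a heart muscle gene, at 68.7 and 7903. The members differed in how far they were lost in these 2 libraries: Ftcd was at 12.2 and 15.2, Aldh1l1 at 181 and 153 and Shmt1 at 137 and 229, whereas Mthfd1 was at 1345 and 1122. Sftpc was also above 1000 in 6 of the 38 libraries, CD males replicate 5, WDF males replicate 2, CD females replicate 5, CDF females replicates 2 and 4 and WD females replicate 4, at most 30176. The highest of these, CD females replicate 5, had a summed lung gene level of 44278 and a summed heart gene level of 16745. For the member with the smallest p in each comparison between 2 groups, the value without these 6 libraries is given too. In a whole liver, fewer cells of a type and less RNA per cell cannot be told apart.

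Per kilobase of annotated exon, Ftcd had the highest level of the 8 genes, with a median of 541 normalized reads per kb over the 38 libraries. Aldh1l1 followed at 464, Mthfd1 at 410, Shmt1 at 348, Gart at 160, Atic at 126, Tyms at 117 and Mthfs at 16.4. Shmt1 exceeded Gart, and Tyms exceeded Mthfs, in 38 of 38 libraries. Other neighbours crossed: Ftcd exceeded Aldh1l1 in 32 libraries, Gart exceeded Atic in 31, Mthfd1 exceeded Shmt1 in 29, Aldh1l1 exceeded Mthfd1 in 27 and Atic exceeded Tyms in 25. The choice of length moved the order, because the annotated exons of Mthfs span 7638 bases against 816 in its principal transcript, and those of Atic 7985 against 2845. Per kilobase of principal transcript the medians were 893 for Ftcd, 562 for Mthfd1, 502 for Aldh1l1, 472 for Shmt1, 354 for Atic, 234 for Gart, 225 for Tyms and 153 for Mthfs. Ftcd was first and Mthfs last on both scales.

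**Figure D1:**
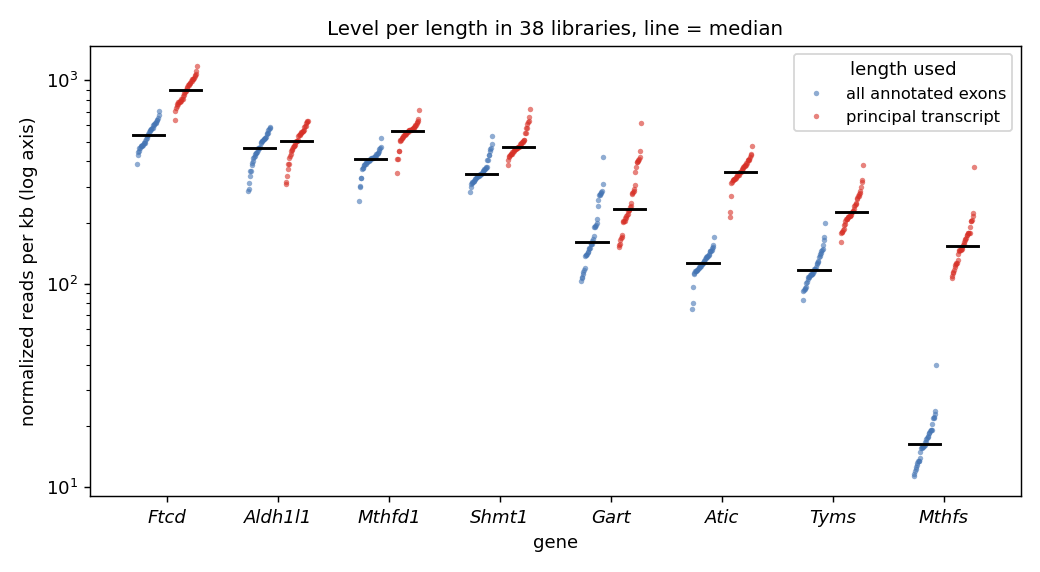
Normalized reads per kb (log axis) of the 8 genes in 38 libraries, 1 point each, with the length taken as all annotated exons (blue) or the principal transcript (red) and the median as a line. Ftcd leads on both scales (medians 541 and 893) and Mthfs is last on both (16.4 and 153).

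Of the genes that load and convert the carrier, Mthfd1 averaged 1676 ± 211 in CD males (SD, n = 5), 1949 ± 107 in CDF, 1810 ± 199.997 in WD and 1749 ± 181 in WDF males. Females averaged 1665 ± 248 in CD (n = 4), 1730 ± 479 in CDF (n = 4), 1823 ± 129 in WD and 1832 ± 143 in WDF (n = 5 each). The group means thus spanned 1.17-fold from CD females to CDF males, and single libraries 2.03-fold, from 1134 to 2307, both ends lying in CDF females (replicates 4 and 3). Shmt1 averaged 1487 ± 340 in CD males, 1336 ± 215 in CDF, 1337 ± 72.2 in WD and 1449 ± 181 in WDF males. The female means were 1270 ± 116 in CD, 1517 ± 272 in CDF, 1533 ± 241 in WD and 1413 ± 196 in WDF. Its group means spanned 1.21-fold, and its highest library was CD males replicate 4 at 2076, with the other 4 CD males between 1230 and 1460.

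Aldh1l1, which unloads the carrier, averaged 2201 ± 341 in CD males (n = 5), 2009 ± 212 in CDF, 1737 ± 408 in WD and 2195 ± 236 in WDF males. The females averaged 2123 ± 382 in CD (n = 4), 2241 ± 280.1 in CDF (n = 4), 2103 ± 448 in WD and 2089 ± 520 in WDF. WD males were the lowest group, 1.29-fold below the highest, CDF females. Ftcd averaged 1871 ± 181 in CD males, 1702 ± 187 in CDF, 1544 ± 171 in WD and 1872 ± 208 in WDF males. Among females it averaged 1733 ± 192 in CD, 1817 ± 367 in CDF, 1703 ± 264 in WD and 1652 ± 303 in WDF. WD males were again lowest, and WDF males highest, 1.21-fold apart. Mthfs averaged 129 ± 31.7 in CD males, 121 ± 37.1 in CDF, 116 ± 22.0 in WD and 139 ± 7.61 in WDF males. In females it averaged 122 ± 15.9 in CD, 178 ± 87.4 in CDF, 148 ± 26.6 in WD and 108 ± 15.8 in WDF. Its group means spanned 1.65-fold between CDF and WDF females, with CDF replicate 4, at 305, in the higher group.

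Tyms, the thymidylate synthase gene, averaged 656 ± 97.5 in CD males (n = 5), 714 ± 132 in CDF, 864 ± 259 in WD and 670 ± 58.5 in WDF males. Females averaged 689 ± 33.9 in CD (n = 4), 833 ± 146 in CDF (n = 4), 782 ± 138 in WD and 740 ± 142 in WDF. WD males were the highest group and CD males the lowest, 1.32-fold apart. Of the purine enzymes, Gart averaged 1096 ± 606 in CD males, 843 ± 345 in CDF, 907 ± 379 in WD and 1101 ± 301 in WDF males. The female means were 718 ± 102 in CD, 1011 ± 319 in CDF, 1075 ± 438 in WD and 909 ± 321 in WDF. Its single libraries spanned 4.06-fold, from 533 in WD males replicate 5 to 2163 in CD males replicate 4, more than any other member. Atic averaged 1088 ± 113 in CD males, 1139 ± 175 in CDF, 1072 ± 103 in WD and 948 ± 179 in WDF males. Among females it averaged 924 ± 124 in CD, 898 ± 227 in CDF, 984 ± 61.7 in WD and 1040 ± 60.9 in WDF. Its group means spanned 1.27-fold, from CDF females to CDF males.

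**Figure D2:**
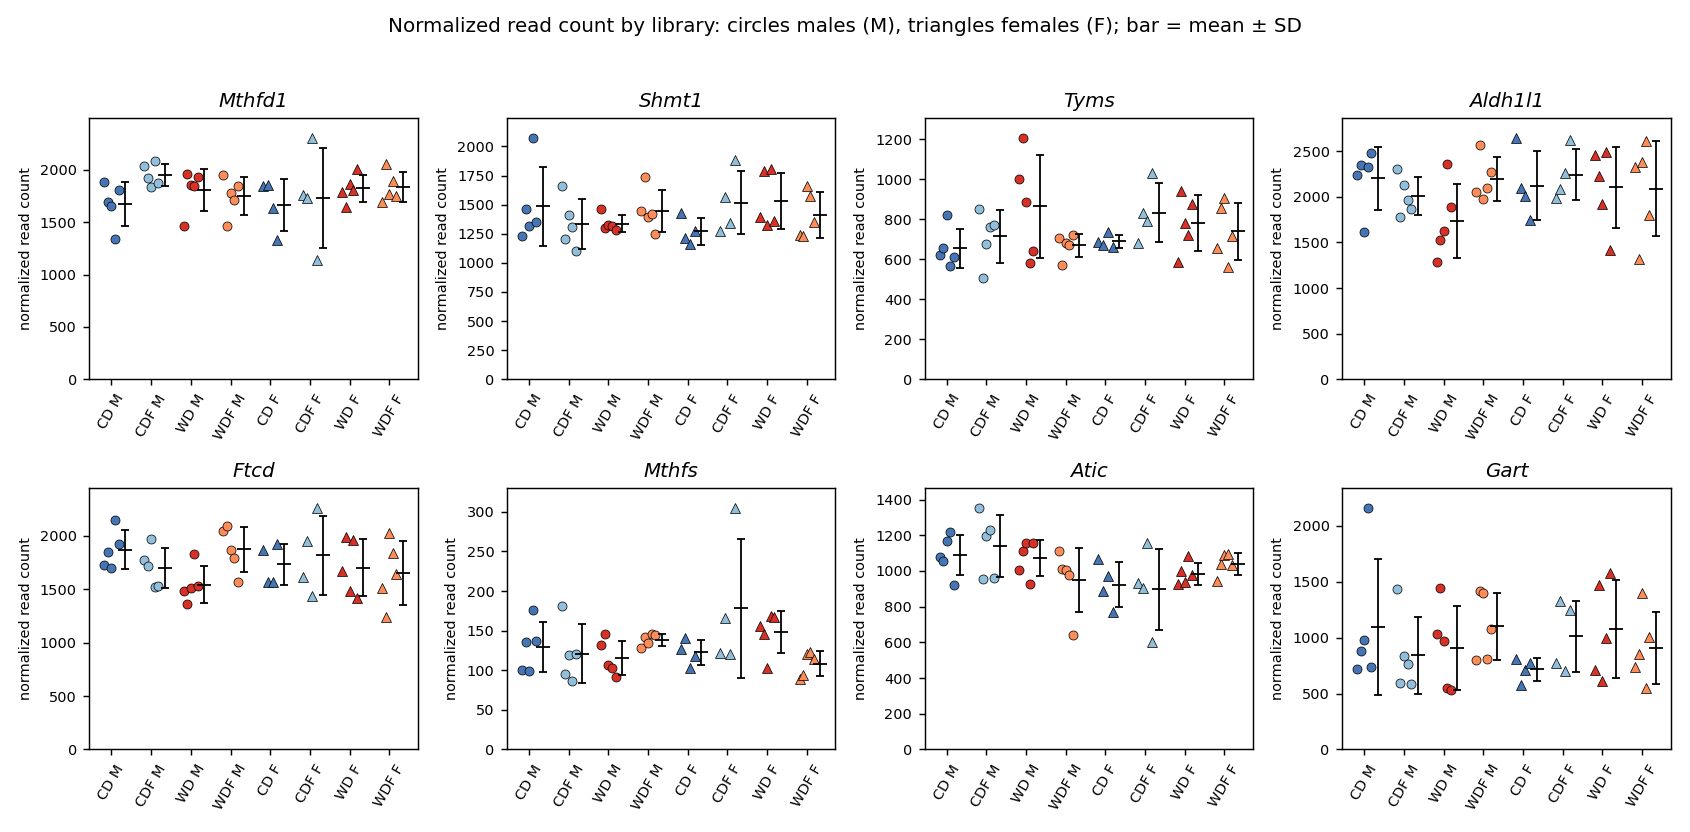
Normalized read counts (linear axes from 0) of the 8 genes in 38 libraries by group, circles for males (M) and triangles for females (F), with group mean ± SD as a bar beside the points. In the 8 comparisons between 2 groups the ranges overlap for all 8 genes, WD males are low for Aldh1l1 (1737) and Ftcd (1544) and high for Tyms (864), and single libraries stand apart for Gart (2163) and Mthfs (305).

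Differences between groups were fitted on log2(value + 1) with limma over the 15377 genes that reached 10 in at least 5 libraries, a filter all 8 members passed. In none of 15 comparisons did a member pass an adjusted p (Benjamini-Hochberg over all tested genes) of 0.05. The comparisons were 8 between 2 groups, 3 averaged over groups and 4 differences of effects. Of all tested genes, 0% passed in each comparison except 0.0455% for the averaged western diet and 0.0585% for sex. Values at an unadjusted p under 0.05 are therefore given below as sizes with their intervals, beside the share of all genes at that level. The ranges of the 2 groups overlapped for every member in all 8 comparisons between 2 groups. Of all tested genes, the ranges did not overlap for 2.52% in WDF against WD males, 0.306% in WDF against WD females, 0.722% in CDF against CD males and 2.75% in CDF against CD females. The share was 1.5% in WD against CD males, 2.56% in WD against CD females, 2.08% in WDF against CDF males and 0.735% in WDF against CDF females.

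In males on the western diet, Aldh1l1 and Ftcd had higher values and Tyms lower ones at the higher folic acid dose, and none of them passed the threshold. Aldh1l1 was 1290, 1525, 1624, 2357 and 1891 in WD replicates 1 to 5 and 2058, 2572, 1977, 2101 and 2268 in WDF replicates 1 to 5. Thus 4 of the 5 WD livers lay below the lowest WDF liver, and WD replicate 4 lay among the WDF livers. The log2 difference was 0.36 ± 0.17 (SE), a fold of 1.28, with a 95% confidence interval of 0.01 to 0.71 (limma adjusted p = 0.558). Ftcd was 1484, 1365, 1515, 1826 and 1531 in WD and 2043, 2088, 1866, 1792 and 1572 in WDF males. WD replicate 4 was again the one liver above the lowest WDF liver. Its log2 difference was 0.28 ± 0.13 (interval 0.01 to 0.55, limma adjusted p = 0.558). Tyms was 1003, 1208, 888, 580 and 643 in WD and 706, 571, 682, 672 and 721 in WDF males. WD replicates 1 to 3 lay above all WDF livers and replicates 4 and 5 within their range. The log2 difference of Tyms was -0.32 ± 0.17 (interval -0.66 to 0.02, limma adjusted p = 0.597).

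Of all tested genes, 8.81% had an unadjusted p under 0.05 in this comparison, against 2 of the 8 members. Of the other members, Gart was 0.34 ± 0.31 higher on the log2 scale, Mthfs 0.28 ± 0.21 and Shmt1 0.11 ± 0.14, while Atic differed by -0.20 ± 0.14 and Mthfd1 by -0.05 ± 0.13. The median difference over the 8 members was 0.19, and over all tested genes 0.01. Markers of other cells differed beside these values. Of 26 cell cycle genes 24 had lower values in WDF males, 12 of them at an unadjusted p under 0.05 and 0 past the threshold, with a median of -0.29. Their summed level was 52398 to 72549.5 in WD and 47969.6 to 60232 in WDF males. Of 17 erythroid genes 15 were lower (median -0.19), and of 18 hepatocyte genes 14 were higher (median 0.07), with summed hepatocyte levels of 2760930 to 3135430 in WD and 3032620 to 3720730 in WDF males. All 10 megakaryocyte genes were higher (median 0.52, 4 at an unadjusted p under 0.05), with summed levels of 3927.62 to 4988.74 in WD and 5346.95 to 7348.02 in WDF males. Of 12 lung genes 11 were higher (median 1.601), with summed levels of 923.91 to 1260.47 in WD and 1067.54 to 9974.16 in WDF males, where replicate 2 was the highest. No gene of these lists was at 0 throughout either group, and the part of these cells in the values of Tyms, Aldh1l1 and Ftcd was not tested. Without WDF replicate 2, the 1 library of the 2 groups with Sftpc above 1000, Aldh1l1 differed by 0.30, Ftcd by 0.24 and Tyms by -0.26. Without WD replicate 1 the log2 difference of Aldh1l1 was 0.26, and without WD replicate 2 that of Tyms was -0.18.

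The same 5 WD males served in the comparison of the diets at the ordinary folic acid dose, WD against CD males, so the values of the WD group enter both comparisons. Tyms was 624, 656, 821, 567 and 613 in CD males. WD replicates 1 to 3 lay above these, and replicates 4 and 5 among them. The log2 difference of Tyms was 0.36 ± 0.17 (interval 0.01 to 0.70, limma adjusted p = 0.737). Aldh1l1 was 2243, 2349, 1611, 2328 and 2478 in CD males. CD replicate 3 lay among the WD livers and WD replicate 4 among the CD livers. Aldh1l1 differed by -0.36 ± 0.17 (interval -0.70 to -0.01, limma adjusted p = 0.737). Ftcd was 1731, 1847, 1700, 2151 and 1926 in CD males, so that 4 of 5 WD livers lay below the lowest CD liver. Ftcd differed by -0.28 ± 0.13 (interval -0.55 to -0.01, limma adjusted p = 0.737).

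In this comparison 3 of 8 members had an unadjusted p under 0.05, and 6.65% of all tested genes. The others differed by -0.24 ± 0.31 (Gart) to 0.11 ± 0.13 (Mthfd1) on the log2 scale. The median was -0.14 over the members and -0.02 over all tested genes. Cell cycle genes were higher in WD males for 25 of 26, 13 of them at an unadjusted p under 0.05 and 0 past the threshold, with a median of 0.33. Their summed level was 40509.7 to 53818 in CD males. Of 17 erythroid genes 14 were higher (median 0.28), and of 18 hepatocyte genes 12 were lower (median -0.13). Of 12 lung genes 11 were lower (median -1.62). Their summed level was 803.382 to 7303.91 in CD and 923.91 to 1260.47 in WD males. The highest CD liver was replicate 5, and the next, replicate 2, stood at 1392.43. Of 7 bile duct genes all were lower (median -1.32), with summed levels of 627.404 to 2595.6 in CD and 411.541 to 643.177 in WD males, which overlap. All 7 mesothelial genes were lower (median -0.47), with summed levels of 4153.85 to 7024.46 in CD and 2676.24 to 3704.32 in WD males, which do not overlap. All 6 heart genes were lower (median -0.84), with summed levels of 125.873 to 634.027 in CD and 86.4885 to 116.925 in WD males, also without overlap. Of 6 skeletal muscle genes 5 were lower (median -1.18). Their summed levels were 119.752 to 546.704 in CD and 91.8908 to 239.599 in WD males, which overlap. CD replicate 4 was the highest CD liver for both the heart and the skeletal muscle genes. The next highest stood at 198.878 (heart, replicate 5) and 202.085 (skeletal muscle, replicate 1). The part of the cells of these lists in the values of the members was not tested. Without WD replicate 2 the log2 difference of Tyms was 0.22. Without the libraries with Sftpc above 1000 it was 0.33, that of Aldh1l1 -0.31 and that of Ftcd -0.27. The difference between the folic acid effects in the 2 diets, tested in males, was 0.42 ± 0.19 for Ftcd (interval 0.04 to 0.80, limma adjusted p = 0.387). It was 0.48 ± 0.24 for Aldh1l1 (interval -0.01 to 0.98, adjusted p = 0.408) and -0.43 ± 0.24 for Tyms (interval -0.91 to 0.05, adjusted p = 0.435). Without the libraries with Sftpc above 1000 these were 0.36 for Ftcd, 0.38 for Aldh1l1 and -0.35 for Tyms. An unadjusted p under 0.05 was found for 1 of 8 members and for 12.3% of all tested genes.

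In both comparisons of WDF females, the smallest p among the members was that of Mthfs, which returns stored formyltetrahydrofolate to the cycle, and it did not pass the threshold. It was 127, 141, 103 and 119 in CD replicates 1, 2, 3 and 5 and 121, 166, 120.1 and 305 in CDF replicates 1 to 4. It was 155, 146, 103, 168 and 167 in WD and 88.7, 93.6, 120.1, 123 and 114 in WDF females. CDF replicate 4 was the highest of all 38 libraries, and 4 of 5 WD livers lay above all WDF livers. The log2 difference of WDF against WD females was -0.44 ± 0.21 (interval -0.86 to -0.02, limma adjusted p = 0.948), where 1.44% of all genes had an unadjusted p under 0.05 and Mthfs was the 1 such member. The difference of WDF against CDF females was -0.62 ± 0.22 (interval -1.07 to -0.17, limma adjusted p = 0.532), where 8.14% of all genes and again 1 member had an unadjusted p under 0.05. The WDF females enter both. WDF replicate 1, their lowest liver for Mthfs (88.7), had a summed heart gene level of 4388, against 75.1 to 177 in the others. The part of heart message in its value was not tested. In CDF against CD females Mthfs differed by 0.44 ± 0.23 (limma adjusted p = 0.507). The folic acid effect differed between the diets by -0.88 ± 0.31 (interval -1.51 to -0.24, limma adjusted p = 0.367). At an unadjusted p under 0.05 were 1 of 8 members and 12.9% of all genes.

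Leaving out CDF females replicate 4 moved the values of Mthfs most. That library had the highest total (27817171), an Sftpc value of 24797, the highest summed erythroid level of its group (8552490, the other 3 at 1803860 to 3053120) and the lowest summed cell cycle level of it (43017, the others at 49037 to 55130.2). Without it the difference of Mthfs was -0.33 in WDF against CDF females, 0.14 in CDF against CD females and -0.58 for the difference of effects. Without all 6 libraries with Sftpc above 1000 these values were -0.17, -0.02 and -0.37. The difference of WDF against WD females was -0.39 without them. Leaving them out removed CD replicate 5 and CDF replicates 2 and 4, the highest of the CDF females for Mthfs (166 and 305). CDF females then rested on replicates 1 and 3 alone (121 and 120.1). What part the make-up of CDF females replicate 4 has in the values of Mthfs was not tested. Replicate 4 of the CDF females was also the lowest of the 38 libraries for Mthfd1 (1134) and Atic (603) and the highest for Ftcd (2264).

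In the other comparisons between 2 groups no member had an unadjusted p under 0.05. In CDF against CD males the smallest p was that of Mthfd1, at 0.23 ± 0.13 (interval -0.04 to 0.49, limma adjusted p = 0.908), and 0 of 8 members against 3.49% of all genes had an unadjusted p under 0.05. This value of Mthfd1 was 0.15 without CD replicate 4 and 0.26 without the libraries with Sftpc above 1000. In CDF against CD females that share was 7.78% against 0 members, with Mthfs the lowest p. In WD against CD females it was 6.57% against 0 members, with Shmt1 at 0.26 ± 0.14 (interval -0.03 to 0.56, limma adjusted p = 0.662) and at 0.20 without the libraries with Sftpc above 1000. In WDF against CDF males it was 6.9% against 0 members. There Atic was 1354, 955, 1193, 1232 and 962 in CDF and 1111, 1011, 1004, 975 and 641 in WDF males, a log2 difference of -0.28 ± 0.14 (limma adjusted p = 0.711). WDF replicate 5 stood below all other males, and without it the difference was -0.14; without the libraries with Sftpc above 1000 it was -0.30. Gart had the largest differences in several comparisons and also the widest intervals, for example 0.49 in WD against CD females with an interval of -0.18 to 1.17. That value was 0.53 without the libraries with Sftpc above 1000 and 0.33 without WD females replicate 5.

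**Figure D3:**
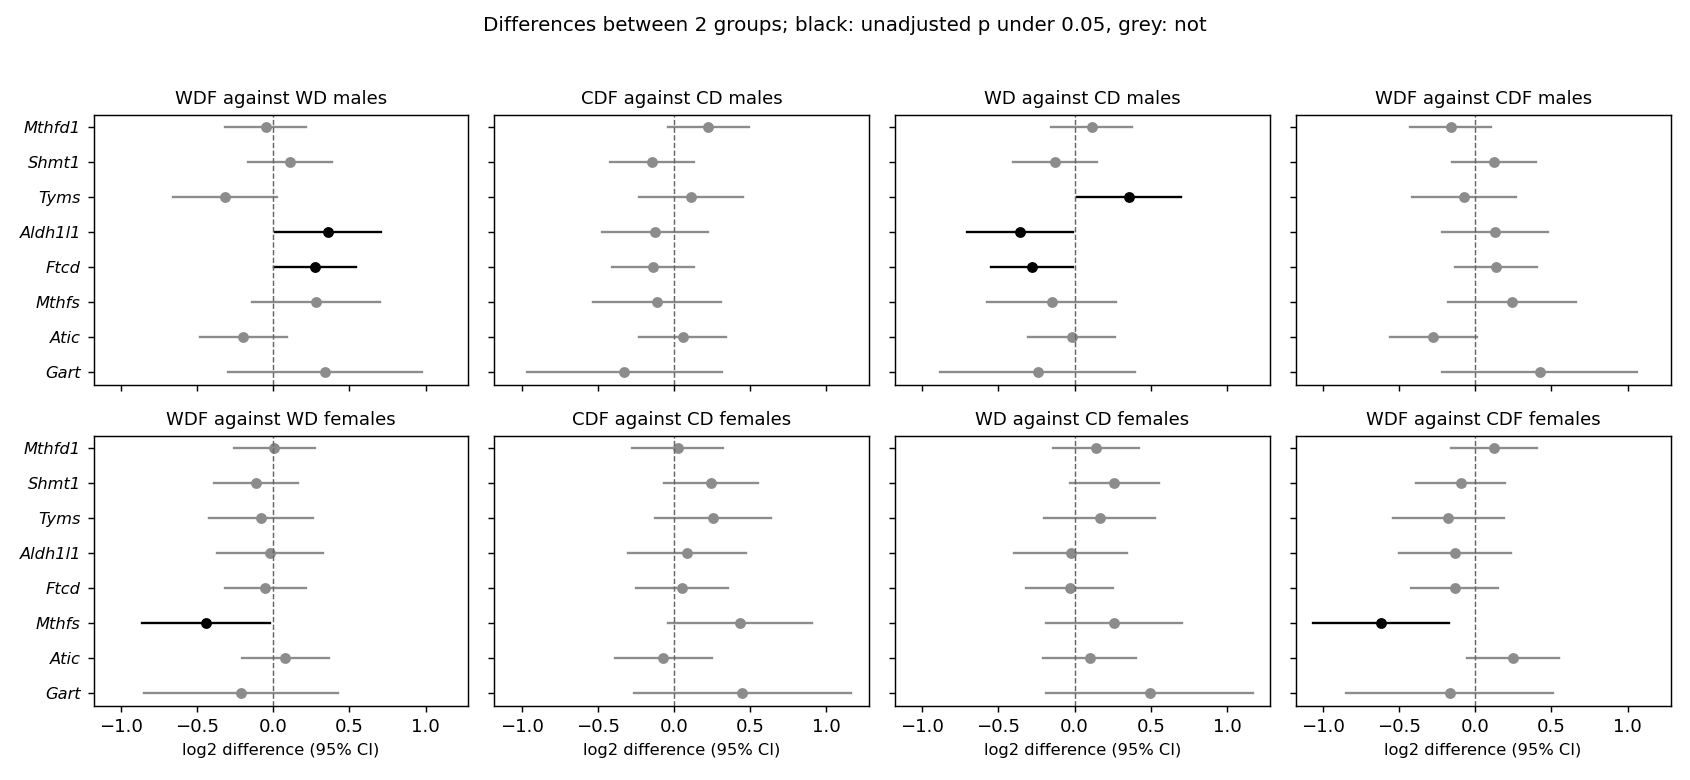
Log2 differences of the 8 genes in the 8 comparisons between 2 groups, as points with 95% confidence intervals, black where the unadjusted p is under 0.05 and grey elsewhere. The black values are Aldh1l1 and Ftcd in WDF against WD males (0.36 and 0.28), Tyms, Aldh1l1 and Ftcd in WD against CD males (0.36, -0.36 and -0.28) and Mthfs in WDF against WD and WDF against CDF females (-0.44 and -0.62); none passed the adjusted threshold.

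Averaged over the 4 strata of fat and sex, the folic acid doses differed by at most 0.08 on the log2 scale for every member. Aldh1l1 was at 0.08 ± 0.09 (interval -0.10 to 0.26, limma adjusted p = 1), Mthfd1 at 0.05 ± 0.07, Mthfs at 0.04 ± 0.11, Ftcd at 0.04 ± 0.07, Shmt1 at 0.02 ± 0.07, Tyms at -0.01 ± 0.09 and Atic at -0.03 ± 0.07. Gart, at 0.06 ± 0.16, had the widest interval, -0.27 to 0.39. At an unadjusted p under 0.05 were 0 of 8 members and 2.33% of all tested genes. Averaged likewise, the western diet values differed from control by -0.10 ± 0.09 (Aldh1l1) to 0.13 ± 0.16 (Gart), with intervals that all lay between -0.29 and 0.45, and the smallest p was that of Ftcd (-0.08 ± 0.07, adjusted p = 0.94). Here the shares were 0 of 8 members and 7.5% of all genes.

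Females and males differed most in Atic, by -0.14 ± 0.07 (interval -0.29 to 0.00, limma adjusted p = 0.999). At an unadjusted p under 0.05 were 0 of 8 members and 3.1% of all genes. Without the libraries with Sftpc above 1000 the value was -0.08. The western diet effect of Atic differed between the sexes by 0.32 ± 0.14 (interval 0.03 to 0.61, limma adjusted p = 1), which made it 1 of 8 members against 1.18% of all genes. Without those libraries it was 0.18. For the folic acid effect in females minus males the counts were 0 of 8 members and 1.07% of all genes, with values from -0.09 (Aldh1l1) to 0.19 (Tyms).

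The authors' deposited tables compare the 2 folic acid doses within each diet and sex, and no member passed an adjusted p of 0.05 in any of the 4. Of all genes with an adjusted p, 1.48% passed in the authors' deposited table for western diet males, 0.0437% for control diet males, 0.0216% for control diet females and 0% for western diet females. In the authors' deposited table for western diet males, Ftcd had a log2 fold change of 0.18 (adjusted p = 0.275), Aldh1l1 0.16 (adjusted p = 0.354) and Tyms -0.13 (adjusted p = 0.412). Mthfs had an unadjusted p of 0.0158 and an adjusted p of 0.964 in the authors' deposited table for western diet females. It was the 1 member with an unadjusted p under 0.05 there, against 2.48% of genes. Western diet males had 2 such members, Ftcd and Aldh1l1, against 11.3% of genes. Control diet males and females had 0, against 4.35% and 5.74% of genes. Fold changes in the authors' deposited tables lie near 0 for nearly all genes (median absolute log2 value 0.0286 in western diet males and 2.52e-06 in western diet females), so their sizes are not comparable with those given above.

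Of the other genes of folate and nucleotide metabolism, 73 were tested and 0 passed the threshold in any of the 15 comparisons. In WDF against WD males 12 of them, 16.4%, had an unadjusted p under 0.05, 3 higher and 9 lower, against 8.81% of all genes. In the other folic acid comparisons these shares were 0% against 1.44% (WDF against WD females), 2.74% against 3.49% (CDF against CD males, 53 genes higher and 20 lower), 5.48% against 7.78% (CDF against CD females) and 1.37% against 2.33% (the averaged dose). They were 8.22% against 6.65% in WD against CD males and 11% against 6.57% in WD against CD females. In WDF against WD males, the smallest p among the higher genes was that of Sardh, which demethylates sarcosine onto folate in mitochondria (0.46 ± 0.18, adjusted p = 0.505). Among the lower genes it was that of Gmps, which makes GMP (-0.49 ± 0.16, adjusted p = 0.455). Of the 15 genes of thymidylate and deoxynucleotide supply besides Tyms, 14 were lower in WDF males (median -0.15) and all 15 were higher in WD than in CD males (median 0.24). The same WD males enter both counts, here and in the lists below, so the 2 directions are not independent. Of all tested genes, 51.4% were higher in WDF than WD males and 47.7% in WD than CD males. Rrm2 is also on the cell cycle list. Dck, a deoxynucleoside salvage kinase, averaged 1127 ± 220 in CD, 1468 ± 117 in WD and 1142 ± 179 in WDF males (n = 5 each). Of 13 genes of purine synthesis besides Gart and Atic, 8 were lower in WDF than WD males (median -0.19) and 10 higher in WD than CD males (median 0.12).

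The 3 genes that break histidine down to the substrate of Ftcd, Hal, Uroc1 and Amdhd1, were all higher in WDF than in WD males (median 0.33) and all lower in WD than in CD males (median -0.15). Amdhd1 averaged 542 ± 79.9 in WD and 681 ± 106 in WDF males (0.33 ± 0.14, adjusted p = 0.514). Among 13 genes of mitochondrial folate and glycine cleavage, 10 were lower and 3 higher in WDF than WD males (median -0.10). Of 13 genes of the methylfolate and methionine cycle, 10 were higher (median 0.08). Folate uptake, retention and reduction counted 7 of 10 lower (median -0.14), and serine and glycine supply 6 of 7 lower (median -0.17). In WDF against CDF females, where Mthfs had its largest difference, 10 of the 73 genes, 13.7%, had an unadjusted p under 0.05, against 8.14% of all genes, led by Pfas among the higher (0.42 ± 0.18, adjusted p = 0.532) and the folate transporter gene Slc46a1 among the lower (-0.41 ± 0.16, adjusted p = 0.532).

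The members differed in how much they varied between fetuses of the same group. The SD within groups, on the log2 scale, was 0.20 for Mthfd1 and Ftcd, 0.21 for Shmt1, 0.22 for Atic, 0.27 for Tyms and Aldh1l1, 0.33 for Mthfs and 0.52 for Gart. Among all tested genes these lie at percentiles from 9.54 (Mthfd1) and 10.2 (Ftcd) to 40.6 (Mthfs) and 73.3 (Gart), so 7 of the 8 varied less than the median gene. The percentiles were not matched for expression level. Much of this variation was shared across the transcriptome. The first principal component of the deviations from group means held 29.7% of the variance within groups, and 23.1% of all tested genes had an absolute r above 0.8 with it. Gart followed it with r = 0.86, Mthfs with 0.76 and Shmt1 with 0.73, Tyms and Ftcd with 0.49, and Mthfd1 ran against it with -0.68, while Atic (-0.13) and Aldh1l1 (0.00) did not follow it. The libraries at its upper end were CDF females replicate 4 and CD males replicate 4, with totals of normalized values of 27817171 and 20808535, also the highest of the 38. Their summed erythroid levels (8552490 and 4787410) and summed levels of neutrophil genes (132787 and 88480.7) were the highest of the 38 as well. The part of these cells in the component was not tested.

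Pairs of members were correlated over the deviations of the 38 libraries from their group means, with p-values from 100000 permutations within groups and adjusted over the 28 pairs. By Pearson's r 10 pairs passed 0.05, 8 positive and 2 negative, and 8 pairs passed by Spearman's rho. The closest pair was Shmt1 with Ftcd, r = 0.77 (rho = 0.79, permutation p = 1e-05 for both, the smallest that these permutations can give, adjusted p = 0.00028). It was 0.80 without the 2 livers farthest from the median of Shmt1, 0.62 in the 20 males and 0.91 in the 18 females, 0.68 once the first component was taken out and 0.71 in the 32 libraries with Sftpc up to 1000. Ftcd also went with Aldh1l1, r = 0.61 (rho = 0.57, permutation adjusted p = 0.00364 and 0.0109). This pair stood at 0.55 in males, where it did not pass (permutation adjusted p = 0.0681), at 0.65 in females and at 0.70 without the first component. In both pairs a liver rich in one message tended to be rich in the other. The promoters of Shmt1 and Ftcd, printed above, shared no searched motif, which also held for Ftcd and every other member.

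Gart went with Shmt1 (r = 0.61, rho = 0.55), Mthfs (0.58 and 0.50) and Tyms (0.56 and 0.54), with permutation adjusted p of 0.00364, 0.00364 and 0.0102 for r. Without the first component r was -0.036 with Shmt1, -0.21 with Mthfs and 0.30 with Tyms, and none passed; the first 2 changed sign. Shmt1 with Mthfs was likewise 0.67 (permutation adjusted p = 0.00112) and 0.27 without the component. Mthfd1 ran against Ftcd (r = -0.57 and rho = -0.52, permutation adjusted p = 0.0049 and 0.0141) and Shmt1 (r = -0.53, permutation adjusted p = 0.009, and rho = -0.41, permutation adjusted p = 0.0634, which did not pass). Both were below -0.3 in each sex, and neither passed without the first component (-0.36 and -0.07) or without the Sftpc libraries (both -0.39). Shmt1 with Aldh1l1 (0.44) and Ftcd with Mthfs (0.48) were the remaining pairs that passed by r, the latter not by rho (0.37, permutation adjusted p = 0.122). In males alone r was 0.27 and 0.21 for them, and without the Sftpc libraries 0.39 and 0.29. Neither pair passed in either setting. Tyms and Aldh1l1 ran against each other (r = -0.42, permutation adjusted p = 0.0681) without passing, and without the first component they did pass (-0.49, adjusted p = 0.0219). Taking out the component also brought Tyms with Ftcd to -0.57 (adjusted p = 0.00532). The purine enzymes Gart and Atic had r = 0.16 as measured and 0.54 without the component (adjusted p = 0.0219).

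**Figure D4:**
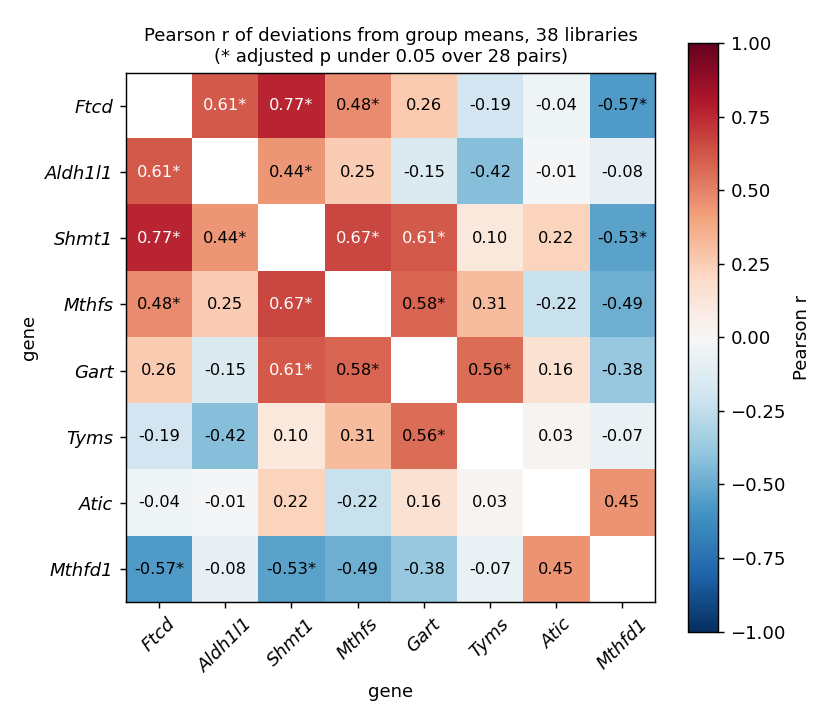
Pearson r between the log2 deviations of the 8 genes from their group means over 38 libraries, blue negative and red positive, with a star where the adjusted p over 28 pairs is under 0.05. Shmt1 is positive with Ftcd (0.77), Mthfs (0.67) and Gart (0.61), and Mthfd1 is negative with Ftcd (-0.57) and Shmt1 (-0.53).

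**Figure D5:**
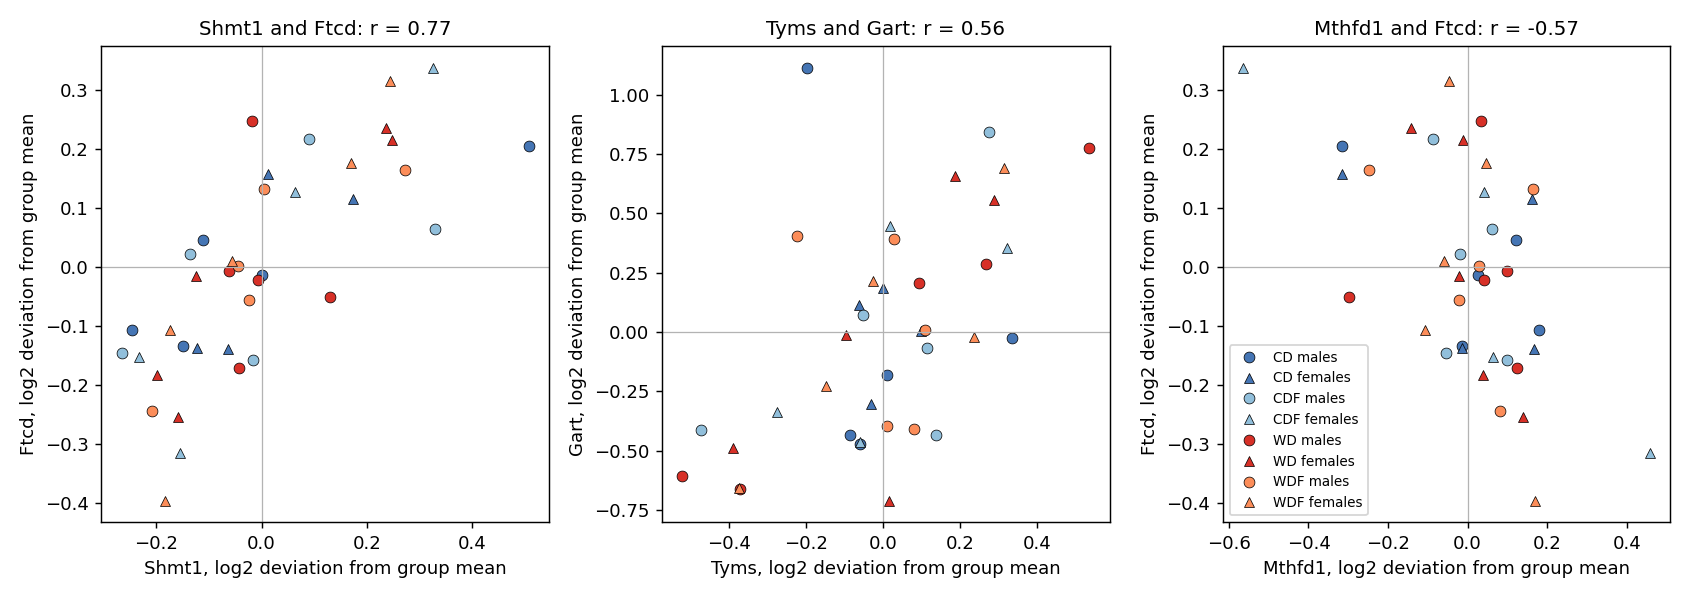
Log2 deviations from the group mean of 3 pairs of genes, 1 point per library (38), coloured by diet with circles for males and triangles for females. Shmt1 and Ftcd lie along a line (r = 0.77), Tyms and Gart scatter around a rising trend with CD males replicate 4 at the top left (r = 0.56), and Mthfd1 and Ftcd fall away from each other (r = -0.57) with CDF females at both ends.

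For each member the 3 tested genes with the most similar deviations over the 38 libraries are named as a description. Gart had the closest neighbours, Nxf1 (r = 0.97), Ppp2r1a (0.96) and Nelfcd (0.96), and Atic the least close, Vcp (0.76), Nup93 (0.76) and Uba1 (0.75). Shmt1 was nearest to Bckdha (0.87), Atraid (0.87) and Hpn (0.87), the last the gene of the liver protease hepsin. Ftcd was nearest to Ndrg2 (0.87), Dcxr (0.87) and Gnmt (0.86), the glycine methyltransferase gene that is itself on the list of the methionine cycle. Aldh1l1 was nearest to the carboxylesterase gene Ces2a (0.85), Slc17a8 (0.83) and Btg1 (0.83). Tyms was nearest to Hmgb3 (0.86), Dnajc9 (0.85) and Magoh (0.83), Mthfd1 to Nup205 (0.86), Gm47252 (0.85) and Proser1 (0.85), and Mthfs to Nudt16l1 (0.82), Ttc36 (0.82) and 2810001G20Rik (0.82). No neighbour of one member was a neighbour of another.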

How the data were processed

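Polyadenylated RNA of 40 samples labelled as fetal mouse liver was sequenced from both ends (43 nt) in directional libraries, as the labels' protocols state. The tools named in the submitters' processing notes are Trimmomatic 0.39, STAR 2.7.3a, Salmon 1.3.0 and DESeq2 1.24, with mm10 as the build and no role stated. The deposited signal table holds read counts that the authors had divided by size factors: median-ratio factors recomputed from it were 1.01 in all 40 libraries. The authors' deposited comparison tables give a log2 fold change and a p-value per gene. Precision rests on the spread between libraries, since whole counts were not at hand.

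Values were fitted as log2(value + 1) by limma 3.58.1 (R 4.3.3). The model gave each group its own mean, used 38 libraries and robust moderation with a trend of variance on level, and took genes at 10 or more in at least 5 libraries. Fold changes on this scale understate changes of low genes. The fit was checked on simulated data in which genes varied independently. That check does not cover the variation shared between genes in the measured libraries. Members, lists, motifs and tests were chosen with earlier results of these data known. Named genes are the members, the 3 nearest genes of each, and pathway genes of smallest p in each direction. Amdhd1 was named after its values were seen. Of 20593 gene IDs, 19996 matched GENCODE M21. A female CDF column without its sex letter was assigned as the 1 title left. No library was a copy of another (highest r 0.982). Alternatives were other library sets, pseudocounts of 0.5 and 5, filters, scalings, library weights, a replicate block and leaving out each library.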

Additional observations from a re-analysis of the deposited data

Results flagged for a closer look

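Of 64 combinations of gene and group, 6 had 1 liver farther from the rest of its group than Dixon's 95% limit, and chance gives about 1 in 20. Mthfd1 was 1464 in WD males replicate 1, with the others at 1843 to 1962. Shmt1 was 2076 in CD males replicate 4, with the others at 1230 to 1460, and Gart was 2163 in the same liver, with the others at 719 to 982. Shmt1 was also high in WD males replicate 1, at 1461 against 1280 to 1329. Aldh1l1 was 1611 in CD males replicate 3, with the others at 2243 to 2478. Atic was 641 in WDF males replicate 5, with the others at 975 to 1111. All 6 are in males, and CD males replicate 4 and WD males replicate 1 each account for 2. The sexes were not tested alike, because CD and CDF females had 4 livers each after the libraries with lung message were left out. Dixon's limit is higher for 4 livers than for 5. Of 32 differences of effects tested for members, 0 passed the threshold.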

How the results depend on the processing

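No member passed the threshold under any alternative: 0 of 3712 values over 11 other settings and 38 fits that each left out 1 library (smallest adjusted p 0.096, Tyms in WDF against WD males with library weights). Signs changed for 19 of 120 values with all 40 libraries, 27 without the Sftpc libraries, 21 with library weights, 2 and 1 with trimmed-mean and upper-quartile scaling, and 95 of 2432 in the fits without 1 library, none of them a value with an unadjusted p under 0.05; with all 40 libraries Ftcd in WD against CD females moved from -0.03 to 1.37. Counts over all genes were less steady. With library weights they were 621 in WDF against WD males, 145 in WD against CD males, 241 in WDF against CDF males, 397 for the folic acid effect in western minus control diet in males, and 486 for the averaged western diet, against 7 as reported, 3 with 40 libraries and 11 at a pseudocount of 5. One gene passed in WDF against WD males without the Sftpc libraries and 1 in WD against CD females fitted alone. Leaving out 1 library gave 0 to 2 in WDF against WD males, 0 to 1 in CDF against CD females, WD against CD males, WD against CD females and WDF against CDF females, 0 to 8 in WDF against CDF males and 3 to 53 for the averaged western diet and 7 to 10 for sex (9 as reported, 8 with the replicate block); the cause was not tested.

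The labels number replicates in each group. Deviations of 126 same-numbered pairs correlated by -0.543 to 0.471 (median 0.0062), 45 of them above 0.1. For 13 of 38 libraries the highest r with another group was with the same number. How many would do so by chance was not computed, so these values do not settle whether the numbers pair libraries. With the replicate block no member passed (smallest adjusted p 0.408), and no sign changed; Ftcd in WDF against WD males stayed at 0.28. Of the pairs of members, 3 passed by r in males alone, 8 in females alone, 7 without the Sftpc libraries and 11 without the first component, the last 2 settings added after seeing the data. By rho 0 passed in males alone, 1 in females alone, 3 without the Sftpc libraries and 8 without the first component. Without that component r changed sign for 9 of 28 pairs, among them Mthfd1 with Tyms (0.42) and Gart (0.56), Shmt1 with Tyms (-0.43) and Gart (-0.036), and Mthfs with Gart (-0.21). Depth could not be set apart from the spread between libraries, since whole counts were not at hand.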
